A study of Mus musculus with 4 samples.

Results

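Hnf4a, Foxa1, Foxa2, Foxa3, Cebpa, Cebpb, Nr1h4, Onecut1 and Prox1 encode transcription factors that are enriched in hepatocytes. They were followed in surface tissue of the fetal liver from p57-/- embryos and from p57+/+ embryos. All probe sets whose only gene symbol on the platform was one of these 9 names were taken. This gave 16 probe sets for the 9 genes, of 45037 that are not controls. No probe set listed a member together with another gene. All 16 passed the detection filter of Present on at least 2 of the 4 arrays, among 22800 probe sets for 11656 genes that did. A total of 15 were Present on all 4 arrays.

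The tissue was the mesothelium of the liver, the sheet of cells on its surface, with the cells just below it, dissected from C57BL/6 embryos at embryonic day 17.5. The p57-/- embryos, labelled Kip2 -/-, lack the cyclin-dependent kinase inhibitor that Cdkn1c encodes, and the p57+/+ embryos were labelled WT. Experiment 1 and experiment 2 each gave 1 p57-/- array and 1 p57+/+ array, so n = 2 per genotype. The labels do not say what an experiment shared or whether a sample was 1 embryo or a pool, so the p-values rest on the variation seen among these 4 samples alone, part of which may be technical.

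These factors bind one another's promoters and enhancers and the genes of the hepatocyte, forming a cross-regulating network that builds up as hepatoblasts mature. HNF4A and FXR, the product of Nr1h4, are nuclear receptors. The FOXA proteins open liver enhancers as pioneer factors, and the C/EBP proteins are leucine zipper factors of metabolic and acute phase genes. HNF6, the product of Onecut1, takes part in the split between hepatocyte and bile duct fates, and PROX1 is needed for hepatoblasts to migrate and for the liver to expand. Several of these genes are also used by other cells of the fetal liver, Cebpa and Cebpb by myeloid cells and Prox1 by lymphatic endothelium.

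The values are MAS5 signals in arbitrary units, scaled by the authors to the same trimmed mean on each array. The highest signal on an array was 61857 to 74260 and the lowest Present signal 12.4 to 15.4. Cdkn1c gave 7.79 and 7.28 in p57-/- samples, against 10255 and 9866 in p57+/+ samples, so the labelled genotypes matched this signal on all 4 arrays. It was at least 760-fold lower in p57-/-, where it was Absent on both arrays (limma adjusted p = 1.80e-08). The samples differed in sex-linked genes. Both p57-/- arrays carried Xist, at 7889 and 6412, together with the Y-linked Eif2s3y, at 966 and 904. Of the p57+/+ arrays, replicate 1 had Xist at 12199 and Eif2s3y at 2.56, and replicate 2 had Xist at 86.7 and Eif2s3y at 1734. Sex makeup and genotype cannot be told apart with these arrays.

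The proximal promoters of the factor genes are shown before the signals because promoters, beside enhancers, are among the places where members of the network bind. Sequences are from RefSeq, build GRCm38.p6, whose table had 13 windows for the 9 genes, each with the 250 bases before an annotated start. The windows chosen are those of Hnf4a, with its separate starts, of Cebpb and Foxa3, the genes with the largest upward differences, and of Nr1h4, which had the largest difference downward among the genes with a single probe set. The upstream Hnf4a start (chr2:163506607-163506856, plus strand) belongs to the promoter known from pancreas and fetal liver. The downstream start (chr2:163546905-163547154, plus strand) belongs to the promoter used in adult liver. The other windows are chr2:167688665-167688914 (plus strand) for Cebpb, chr7:19023540-19023789 (minus strand) for Foxa3 and chr10:89506659-89506908 (minus strand) for Nr1h4. Capitals mark matches, on either strand, to the letters searched.
Hnf4a upstream start: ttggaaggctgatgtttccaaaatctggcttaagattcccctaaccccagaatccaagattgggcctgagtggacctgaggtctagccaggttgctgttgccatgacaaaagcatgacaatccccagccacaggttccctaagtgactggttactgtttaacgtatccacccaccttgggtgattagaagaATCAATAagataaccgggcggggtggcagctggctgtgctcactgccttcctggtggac
Hnf4a downstream start: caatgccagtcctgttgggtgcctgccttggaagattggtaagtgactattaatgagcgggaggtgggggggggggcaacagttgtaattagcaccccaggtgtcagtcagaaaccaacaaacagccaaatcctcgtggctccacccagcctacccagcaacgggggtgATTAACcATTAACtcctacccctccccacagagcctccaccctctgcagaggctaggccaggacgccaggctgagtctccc
Cebpb: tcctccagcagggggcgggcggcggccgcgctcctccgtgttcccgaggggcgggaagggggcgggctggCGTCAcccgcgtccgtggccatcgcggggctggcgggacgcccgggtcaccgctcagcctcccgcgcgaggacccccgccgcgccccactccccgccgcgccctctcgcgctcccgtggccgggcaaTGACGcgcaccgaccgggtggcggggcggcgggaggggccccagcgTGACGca
Foxa3: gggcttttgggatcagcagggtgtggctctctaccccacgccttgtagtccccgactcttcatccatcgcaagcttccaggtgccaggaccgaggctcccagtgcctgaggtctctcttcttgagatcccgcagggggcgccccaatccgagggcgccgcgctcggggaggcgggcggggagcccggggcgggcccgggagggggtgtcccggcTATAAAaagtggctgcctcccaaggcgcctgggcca
Nr1h4: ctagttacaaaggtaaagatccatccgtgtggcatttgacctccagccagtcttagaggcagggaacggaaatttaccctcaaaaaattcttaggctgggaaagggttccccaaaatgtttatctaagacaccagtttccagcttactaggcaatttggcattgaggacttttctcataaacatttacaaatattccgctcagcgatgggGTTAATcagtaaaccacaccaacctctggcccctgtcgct

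The Onecut letters ATCAATA stand in the upstream Hnf4a window and in 1 of the Foxa2 windows, 2 of the 13 windows, beside 1.86% of 32851 windows of that length over all genes. The HNF1 letters GTTAAT occur 2 times in the downstream Hnf4a window and 1 time in that of Nr1h4, and in 3 of the 13 windows in all, beside 6.43% of all windows. The Cebpb window holds 3 copies of TGACG, the core of the cyclic AMP response element. These letters were in 2 of the 13 windows, beside 17.8% of all windows. TATAAA lies in the Foxa3 window, starting 36 bases before the start, and in 4 of the 13 windows, beside 12.4% of all. The FOXA letters TGTTTAC were in 1 of the 13 windows, that of Foxa1, beside 3.17% of all. The C/EBP letters TTGCNNAA and the HNF4 letters CAAAGTCCA were in 0 of the 13, beside 9.56% and 0.384% of all. Matches overlapped in none of the 5 windows shown. A match describes letters only, and its absence says nothing of the factor.

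None of the 9 genes passed the test between the genotypes. Over the 16 probe sets the log2 change, p57-/- minus p57+/+, ran from -0.31 to 0.41. The adjusted p ran from 0.557 to 0.985 (limma with a variance trend, two-sided, Benjamini-Hochberg over all 22800 probe sets), against a threshold of 0.05. Among all probe sets 0% passed higher and 0.00439% lower, Cdkn1c alone (0.00858% when counted by gene). At an unadjusted p under 0.05, 3 of the 16 were higher and 0 lower, beside 3.93% higher and 3.75% lower of all probe sets. By the sign of the mean change, 11 of the 16 were higher, beside 51.1% of all, and 5 lower, beside 48.9%. The 3 with a low unadjusted p are both probe sets of Cebpb and the single one of Foxa3.

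The genotypes did not overlap, with p57-/- higher, at 5 of the 16 probe sets, beside 19.8% of all. Those were both of Cebpb, that of Foxa3, the brightest of Hnf4a and the brightest of Prox1. They did not overlap, with p57-/- lower, at 1, that of Nr1h4, beside 18.8% of all, although its arrays of experiment 1 were almost equal. At 12 of the 16 the gap between the arrays of 1 genotype was larger than the change between genotypes, which held for 74.7% of all tested probe sets. The median absolute log2 change was 0.16 over the 16 and 0.17 over all tested.

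**Figure D1:**
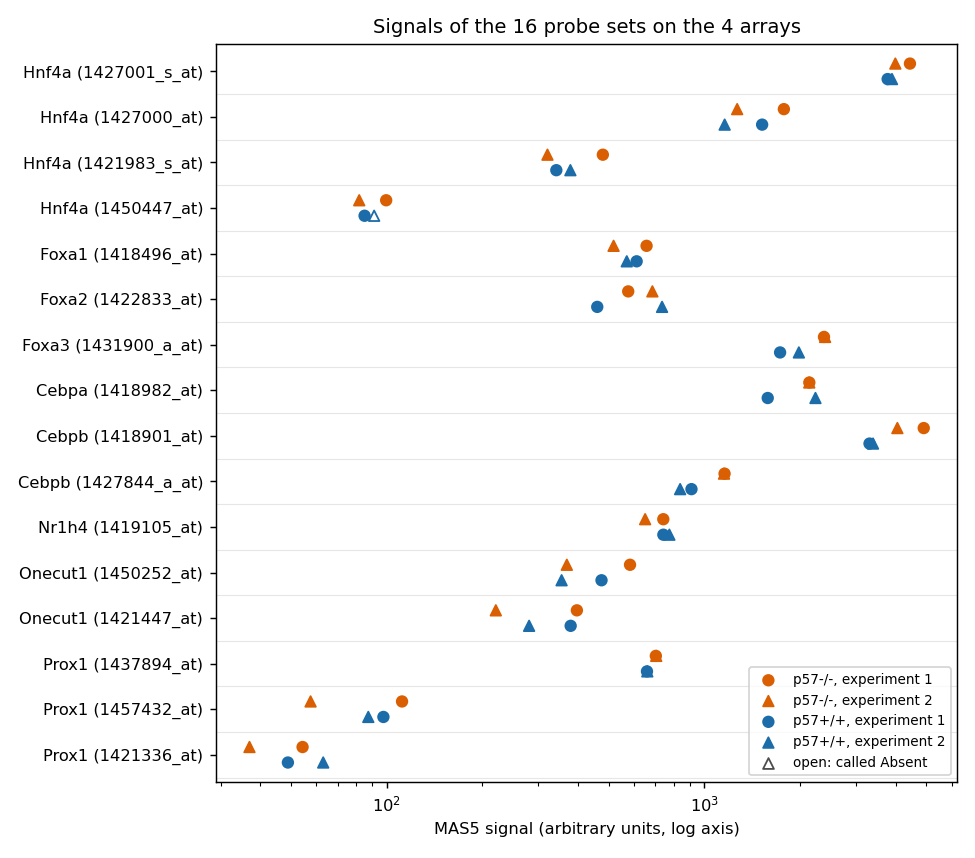
MAS5 signal (log axis, arbitrary units) of each of the 16 probe sets on the 4 arrays, p57-/- above p57+/+, with circles for experiment 1, triangles for experiment 2 and an open symbol where the call was Absent. Orange and blue points stand clear of each other for both Cebpb probe sets and for Foxa3, and lie mixed for most others.

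Hnf4a, which encodes the nuclear receptor at the centre of the hepatocyte network, had 4 probe sets and no change past the threshold. The brightest, 1427001_s_at, gave 4438 and 3992 in p57-/- samples, against 3775 and 3896 in p57+/+ samples. The p57-/- arrays were both above the p57+/+ arrays, by less than the gap between the p57-/- arrays. It averaged 4215 ± 315 in p57-/- and 3835 ± 85.1 in p57+/+ (SD, n = 2 each), a log2 change of 0.13 with a 95% interval of -0.14 to 0.41 (limma adjusted p = 0.807).

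The other Hnf4a probe sets overlapped between genotypes. Probe set 1427000_at gave 1779 and 1268 in p57-/- samples, against 1519.7 and 1158 in p57+/+ samples, so replicate 2 was the lower array in either genotype. Probe set 1421983_s_at gave 479 and 320.5 in p57-/- samples, against 342 and 378 in p57+/+ samples, with the p57-/- arrays on both sides of the p57+/+ arrays. The dimmest, 1450447_at, gave 99.6 and 81.9 in p57-/-, against 85.1 and 91.2 in p57+/+, where replicate 2 was Absent. All 4 had a positive log2 change, 0.03 to 0.18.

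Among other liver transcription factors, those whose signal differed least from the brightest Hnf4a probe set were Xbp1, Sall4 and Nr2f2. Likeness was the root-mean-square difference of log2 signals, each centred on its own mean over the 4 arrays. It was 0.0224 for Xbp1, 0.0494 for Sall4 and 0.0548 for Nr2f2. The nearest of the other 8 factor genes was Prox1, with its brightest probe set at 0.0610. The other Hnf4a probe sets were farther, at 0.0701, 0.155 and 0.196. A small value also arises where both signals vary little over the arrays, so it does not show that a gene follows Hnf4a.

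Nr1h4 encodes FXR, the bile acid receptor that restrains bile acid synthesis. Its single probe set (1419105_at) gave 742.3 and 651 in p57-/- samples, against 742.6 and 776 in p57+/+ samples. The p57-/- array of experiment 1 was level with its p57+/+ partner, and that of experiment 2 was the lowest of the 4. Nr1h4 averaged 696 ± 64.8 in p57-/- and 759 ± 23.4 in p57+/+ (SD, n = 2 each), a log2 change of -0.13 with an interval of -0.49 to 0.23 (limma adjusted p = 0.873).

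Foxa3 was the FOXA gene whose genotypes did not overlap. The FOXA genes have overlapping roles in the liver, and Foxa3 is the one most abundant in the adult organ. Its probe set (1431900_a_at) gave 2379.5 and 2399 in p57-/- samples, against 1731 and 1983 in p57+/+ samples, each p57-/- array being above each p57+/+ array. The p57-/- arrays were nearly equal and the p57+/+ arrays spread further. Foxa3 averaged 2389 ± 13.8 in p57-/- and 1857 ± 179 in p57+/+ (SD, n = 2 each), 1.29-fold, a log2 change of 0.37 (SE 0.13, limma adjusted p = 0.581). The log2 change was 0.46 in experiment 1 and 0.27 in experiment 2.

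Foxa1 and Foxa2, needed together for the liver to be specified from the foregut, showed overlapping genotypes. Foxa1 (1418496_at) gave 658 and 518 in p57-/- samples, against 612 and 569.6 in p57+/+ samples, with both p57+/+ arrays between the p57-/- arrays. Its log2 change was -0.02, with an interval of -0.42 to 0.39. Foxa2 (1422833_at) gave 576 and 686 in p57-/- samples, against 459.9 and 736 in p57+/+ samples, here with both p57-/- arrays between the p57+/+ arrays. Its log2 change was 0.11, with an interval of -0.41 to 0.63. Signals of different probe sets are not on one scale, so the FOXA genes were not ranked against each other.

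Cebpb showed the largest difference among the 9 genes, alike with both of its probe sets. It encodes C/EBP-beta, which is induced in hepatocytes by injury, fasting and inflammation and is also active in macrophages. Probe set 1418901_at gave 4904 and 4051 in p57-/- samples, against 3310.1 and 3395 in p57+/+ samples. Probe set 1427844_a_at gave 1157 and 1153 in p57-/- samples, against 910.5 and 839 in p57+/+ samples. With either probe set each p57-/- array was above each p57+/+ array.

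The first Cebpb probe set averaged 4477 ± 603 in p57-/- and 3353 ± 60.2 in p57+/+, and the second 1155 ± 3.20 in p57-/- and 875 ± 50.8 in p57+/+ (SD, n = 2 each). These are 1.33-fold and 1.32-fold, or log2 changes of 0.41 (SE 0.13) and 0.40 (SE 0.15), with limma adjusted p of 0.557 and 0.580. The change was 0.57 and 0.35 in experiment 1 and 0.25 and 0.46 in experiment 2. Of all tested probe sets, 2.10% had a smaller p than the first and 3.56% a smaller p than the second. Probe sets of 1 gene on the same arrays are not independent replicates.

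Cebpa encodes C/EBP-alpha, which holds mature hepatocytes out of the cell cycle and also directs granulocyte development. Its probe set (1418982_at) gave 2139 on both p57-/- arrays, against 1583 and 2237 on the p57+/+ arrays. The p57-/- samples lay between the p57+/+ samples, nearer the upper one. The log2 change was 0.19 (interval -0.20 to 0.57, limma adjusted p = 0.812), and it was 0.43 in experiment 1 and -0.06 in experiment 2.

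Onecut1 varied more between experiments than between genotypes. Probe set 1450252_at gave 583 and 369 in p57-/- samples, against 474 and 355 in p57+/+ samples. Probe set 1421447_at gave 397 and 220.4 in p57-/- samples, against 379 and 281 in p57+/+ samples. In each genotype replicate 2 was the lower array with either probe set. Replicate 2 minus replicate 1 was -0.66 and -0.85 on the log2 scale in p57-/- and -0.42 and -0.43 in p57+/+. The genotype changes, 0.18 (SE 0.25) and -0.14 (SE 0.29), had opposite signs, and neither passed (limma adjusted p = 0.890 and 0.925).

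The brightest Prox1 probe set, 1437894_at, had close replicates in both genotypes. It gave 703 and 705 in p57-/- samples, against 659 and 661 in p57+/+ samples. The genotypes were apart by more than either gap between replicates, yet the mean difference was only 1.07-fold. The log2 change was 0.09 (limma adjusted p = 0.906), where the test borrows the spread of other probe sets of like signal. Its interval was -0.26 to 0.44.

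The 2 dim Prox1 probe sets went the other way on average. Probe set 1457432_at gave 112 and 57.5 in p57-/- samples, against 97.6 and 87.5 in p57+/+ samples. Probe set 1421336_at gave 54.3 and 37.0 in p57-/- samples, against 48.8 and 63.1 in p57+/+ samples. In both, the p57-/- array of experiment 2 was the lowest of the 4. Their log2 changes were -0.20 (SE 0.41) and -0.31 (SE 0.49), the widest errors among the 16, so the 3 Prox1 probe sets give no single direction.

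**Figure D2:**
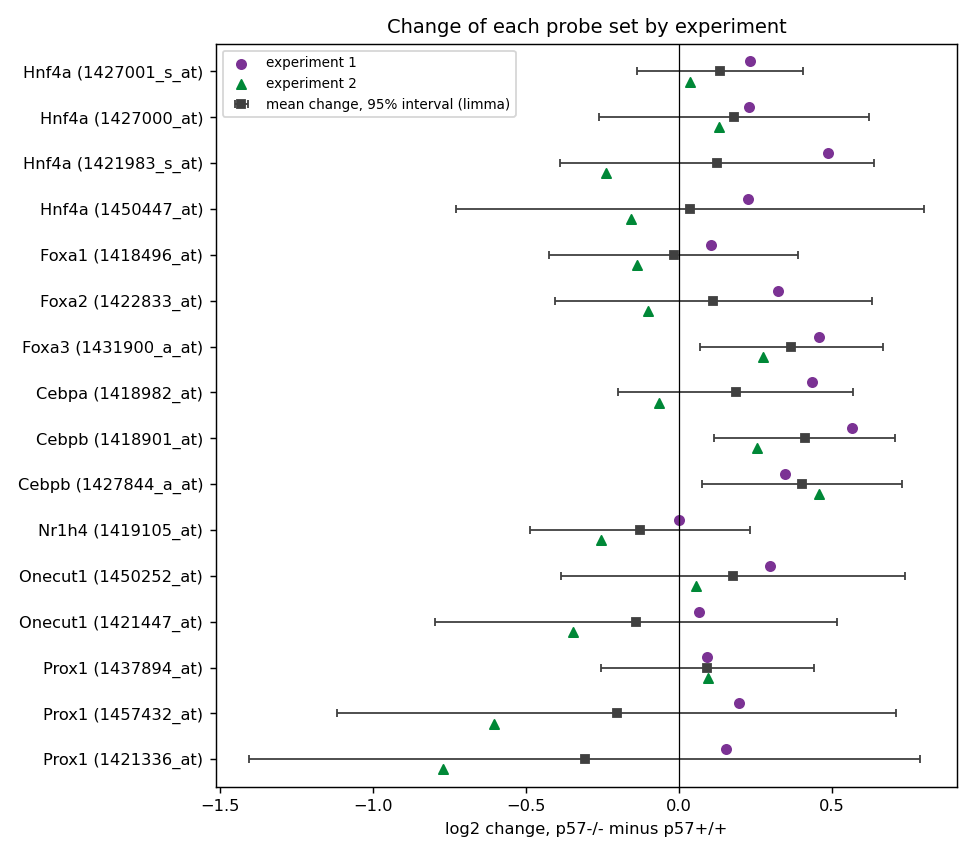
Log2 change (p57-/- minus p57+/+) of each probe set, with squares and 95% intervals for the mean over both experiments, circles for experiment 1 and triangles for experiment 2. The circles lie right of 0 for 15 of the 16, and the triangles for 7 of the 16.

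The experiments differed in how many of these probe sets were higher in p57-/-. In experiment 1, 15 of the 16 were higher in p57-/- and 1, Nr1h4, was lower, beside 52.9% higher and 47.1% lower of all probe sets. In experiment 2, 7 were higher and 9 lower, beside 48.2% and 51.8% of all. The median log2 change over the 16 was 0.23 in experiment 1 and -0.08 in experiment 2, beside 0.03 and -0.01 over all probe sets. Each experiment is 1 array against 1, so the difference between them was not tested. The p57+/+ samples of the experiments also differed in Xist and Eif2s3y, as given above, so experiment and sex makeup cannot be told apart. Higher in both experiments were 7 of the 16, beside 27.9% of all, and lower in both was only Nr1h4, beside 26.8% of all.

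The hepatocyte markers also had opposite signs in the experiments, as did some other marker lists, while the rest kept their sign. The 6 tested hepatocyte markers of 8 listed had a summed signal of 340143 and 338958 in p57-/- samples, against 299409 and 374337 in p57+/+ samples. The p57+/+ array of experiment 1 had the least and that of experiment 2 the most, while the p57-/- arrays were almost equal. Apoa1 and Ttr were the brightest of the list, at 70026 and 69020 for Apoa1 in p57-/-, against 61857 and 70853 in p57+/+. These were the highest signals on each array or close to them. The mean log2 difference of the 6 markers was 0.18 in experiment 1 and -0.15 in experiment 2. The median of the granulocyte markers was positive in both, at 0.22 and 0.14, and that of the erythroid markers negative in both, at -0.65 and -0.23. Submesothelial mesenchyme and stellate cell markers stayed positive (0.35 and 0.05), as did the adipocyte marker Fabp4 (1.11 and 0.30). Gut and pancreas markers stayed negative (-0.62 and -0.92). Medians turned from positive to negative for macrophage (0.25 and -0.19) and bile duct markers (0.30 and -0.06). The same held for lymphatic and sinusoidal endothelium (0.41 and -0.09) and mesothelium (0.29 and -0.01).

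With each array scaled to the 6 hepatocyte markers, a setting added after the data were seen, all probe sets of an array shift alike. The median log2 change over the 16 was then 0.05 in experiment 1 and 0.06 in experiment 2, instead of 0.23 and -0.08. The part of hepatocyte content in the differences was not tested. In bulk tissue, fewer hepatocytes and less RNA of a gene per hepatocyte cannot be told apart.

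**Figure D3:**
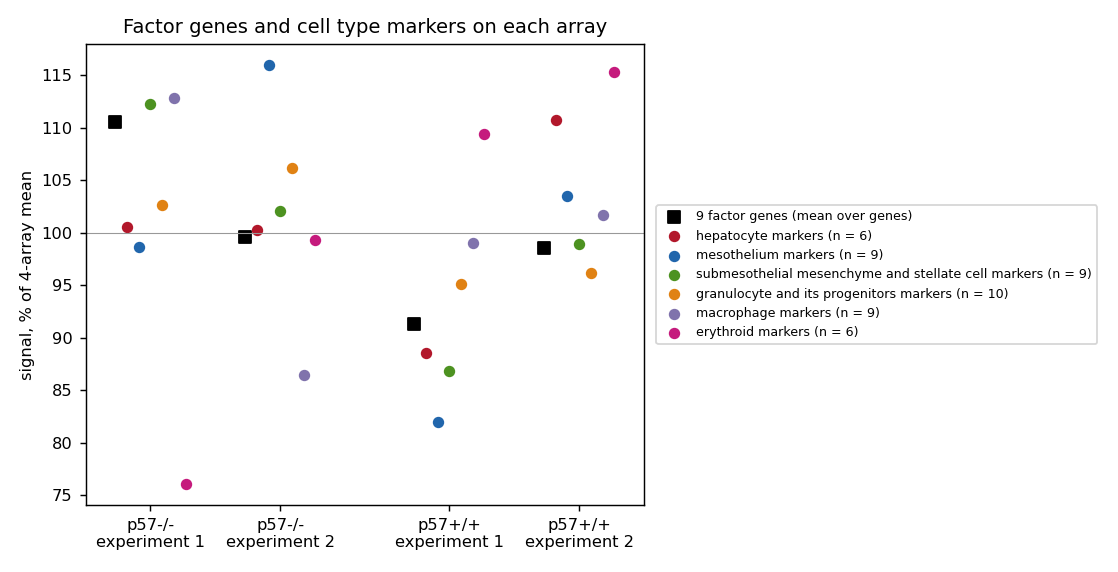
Signal on each array as a percentage of the mean of the 4 arrays, averaged over the brightest probe sets of the 9 factor genes (black squares) and summed over each marker list (coloured points), with n the tested genes. The factor genes averaged 111% and 99.6% on the p57-/- arrays, against 91.3% and 98.6% on the p57+/+ arrays, and the hepatocyte markers 101% and 100.2% in p57-/-, against 88.5% and 110.7% in p57+/+.

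The labelled tissue was present by its markers. All 9 mesothelium markers were tested, with a summed signal of 12641 and 14865 in p57-/- samples, against 10504 and 13263 in p57+/+ samples, Alcam and Upk3b being the brightest. Of 10 markers of submesothelial mesenchyme and stellate cells, 9 were tested and Des was Absent throughout, with sums of 82649 and 75110 in p57-/- samples, against 63879 and 72775 in p57+/+ samples, led by Col3a1 and Col1a2. Both lists were lowest in the p57+/+ sample of experiment 1.

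Myeloid and endothelial cells also use some of the 9 genes. The 10 tested granulocyte markers of 11, led by S100a9 and S100a8, summed to 214848 and 222316 in p57-/- samples, against 199061 and 201352 in p57+/+ samples. That list and both Cebpb probe sets were higher on both p57-/- arrays than on either p57+/+ array. So were the lists of submesothelial mesenchyme and stellate cells and of lymphatic and sinusoidal endothelium, and the adipocyte marker Fabp4. The part of any of these cells in the Cebpb difference was not tested. All 9 macrophage markers were tested, led by Csf1r and Cd5l, with sums of 29745 and 22788 in p57-/- samples, against 26098 and 26814 in p57+/+ samples, which overlap. For lymphatic and sinusoidal endothelium, 6 of 8 were tested, led by Reln and Lyve1, with sums of 26143 and 23466 in p57-/- samples, against 20851 and 23291 in p57+/+ samples.

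The remaining marker lists differed in direction. The 6 tested erythroid markers of 8, led by Slc4a1 and Tfrc, summed to 59710 and 77993 in p57-/- samples, against 85928 and 90578 in p57+/+ samples. For bile duct epithelium, whose cells also use Onecut1 and the FOXA genes, 3 of 7 were tested and Cldn4 was Absent throughout. Their sums were 1294 and 1605 in p57-/- samples, against 1102 and 1664 in p57+/+ samples, Krt19 and Krt7 being brightest. In either genotype both keratins were lower in experiment 1 than in experiment 2, as was the summed mesothelium signal. Whether the keratin signal came from duct cells or from mesothelium was not tested. Of 8 gut and pancreas markers, 3 were tested, led by Fabp2 and Vil1, of which Vil1 was Absent on both p57+/+ arrays, with sums of 270.1 and 311 in p57-/- samples, against 376 and 484 in p57+/+ samples. The defining factors Pdx1, Cdx1, Cdx2 and Ptf1a were Absent on all 4 arrays. Among 5 adipocyte markers only Fabp4, which other cells share, was tested, at 6505 and 4152 in p57-/- samples, against 3011 and 3378 in p57+/+ samples, while Adipoq and Pparg were Absent throughout.

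Genes around the 9 factors were described with 5 lists, taking the brightest probe set of each gene. None of their tested genes passed over all probe sets. The 9 factor genes themselves had a median log2 change of 0.13, beside 0.02 over all 11656 genes. By experiment it was 0.30 and 0.04.

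Paralogues of the 9 genes were tested for 4 of 9 listed. Cebpd, which like Cebpb is induced in inflammation, gave 2093 and 1314 in p57-/- samples, against 1172 and 1088 in p57+/+ samples, without overlap. Its log2 change was 0.55 (SE 0.21, limma adjusted p = 0.588), the only one of the 4 with an unadjusted p under 0.05, beside 4.7% of genes higher. Onecut2, the paralogue of Onecut1, was at 0.29 (SE 0.19), Cebpg at 0.13 (SE 0.14) and the stress factor gene Ddit3 at -0.10 (SE 0.17). Onecut3, Prox2 and Hnf4g were Absent on all 4 arrays.

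Other transcription factors of liver or hepatoblast were tested for 28 of 32 listed, and 0 passed. Their median log2 change was 0.14, with 0.27 in experiment 1 and 0.01 in experiment 2. Higher in both experiments were 12 of the 28, beside 29.6% of all genes. The genotypes did not overlap, with p57-/- higher, for 8 of the 28, beside 21.7% of all genes. They were lower in both experiments for 3, beside 26.7%, and lower without overlap for 2, beside 19% of all genes.

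Nr1i3, the gene of the xenobiotic receptor CAR, was at 312 and 230.1 in p57-/- samples, against 94.9 and 182 in p57+/+ samples. The p57+/+ array of experiment 1 was Absent, so the size of the difference there is not measured. The fitted log2 change was 1.03 (SE 0.33, limma adjusted p = 0.557), and it was 0.34 in experiment 2. Tbx3, a repressor that keeps hepatoblasts growing, was at 231 and 224 in p57-/- samples, against 187 and 108 in p57+/+ samples, a log2 change of 0.68 (SE 0.30). Sox9, a factor of bile duct cells, was at 0.64 (SE 0.45) with overlapping genotypes, and it too was Absent on the p57+/+ array of experiment 1.

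Gata6, an endoderm factor that mesenchyme and mesothelium express too, gave 1408 and 1164 in p57-/- samples, against 918 and 860 in p57+/+ samples, a log2 change of 0.53 (SE 0.16). Nr1i3, Tbx3, Gata6, Ppara and Creb3l3 were the 5 with an unadjusted p under 0.05, all higher, beside 4.7% of all genes higher and 4.07% lower. Ppara, the gene of the fatty acid receptor, at 0.49 (SE 0.14), and Creb3l3, at 0.42 (SE 0.16), were named after their values were seen.

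**Figure D4:**
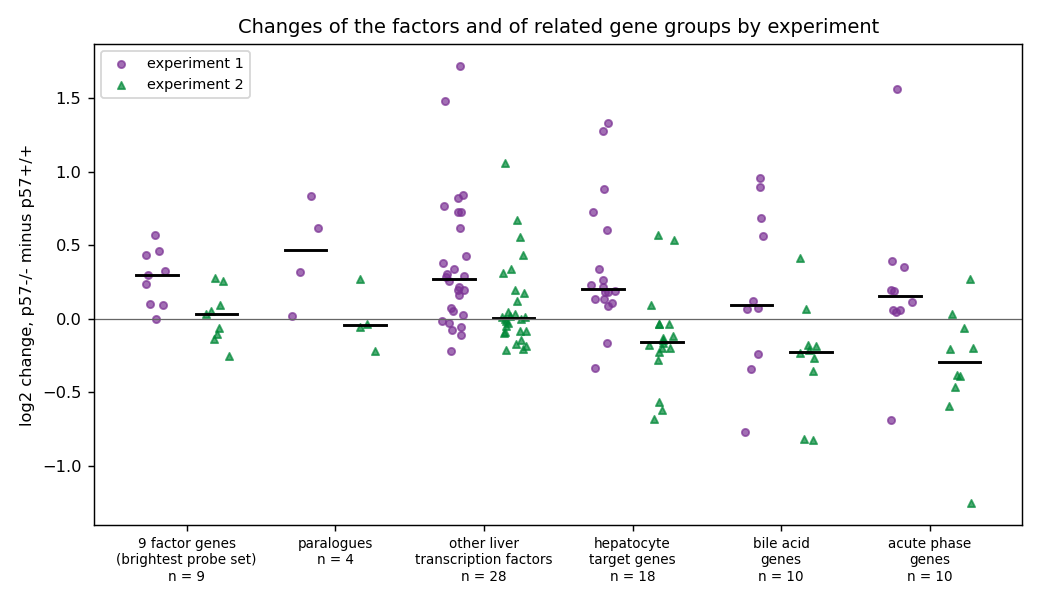
Log2 change (p57-/- minus p57+/+) of each tested gene in experiment 1 (circles) and experiment 2 (triangles) for the 9 factor genes and the 5 related lists, with a black bar at each median. The median is higher in experiment 1 than in experiment 2 in all 6 groups.

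Hepatocyte genes that HNF4A, FOXA and C/EBP factors are known to regulate were tested for 18 of 21 listed, and 0 passed. Their median log2 change was 0.04, with 0.20 in experiment 1 and -0.16 in experiment 2. Tat, a late marker of hepatocyte maturation, was Absent on all 4 arrays. Igfbp1, which encodes a secreted binding protein of insulin-like growth factors, gave 66488 and 50700.4 in p57-/- samples, against 40286 and 34909 in p57+/+ samples, without overlap. Its log2 change was 0.63 (SE 0.14, limma adjusted p = 0.519). Pck1, a gluconeogenic enzyme gene, was at 169 and 16.8 in p57-/- samples, against 69.8 and 11.3 in p57+/+ samples. It was Absent on both arrays of experiment 2, so only experiment 1 gave a measured difference, 1.28 on the log2 scale.

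The clotting factor gene F9 had a log2 change of -0.36 (SE 0.15) and Apoc3 one of 0.32 (SE 0.41). Igfbp1, higher, and F9, lower, were the only genes of this list with an unadjusted p under 0.05, beside 4.7% of all genes higher and 4.07% lower. Apoc3 was at 1.33 in experiment 1 and -0.68 in experiment 2.

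Genes of bile acid synthesis and transport, several of them FXR targets, were tested for 10 of 13 listed, and 0 passed. Their median was -0.02, with 0.10 in experiment 1 and -0.22 in experiment 2. Nr0b2, the gene of the repressor SHP through which FXR acts, was Absent on all 4 arrays. The uptake transporter gene Slco1b2 gave 419 and 494 in p57-/- samples, against 713 and 558 in p57+/+ samples, a log2 change of -0.47 (SE 0.19, limma adjusted p = 0.631). It and Abcb4, named after its value was seen, at -0.30 (SE 0.13), had an unadjusted p under 0.05, both lower, beside 4.07% of genes.

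Cyp7a1 encodes the rate-limiting enzyme of bile acid synthesis, and Abcb11 the bile salt export pump. Their genotypes overlapped. The log2 change was -0.37 (SE 0.21, limma adjusted p = 0.699) for Cyp7a1 and -0.35 (SE 0.21, limma adjusted p = 0.707) for Abcb11. In experiment 1 it was 0.07 for Cyp7a1 and 0.12 for Abcb11, and in experiment 2 -0.82 and -0.81. For both genes the p57+/+ array of experiment 2 was the highest, at 1257 for Cyp7a1 and 1617 for Abcb11. The p57-/- arrays gave 874 and 711 for Cyp7a1, and the p57+/+ array of experiment 1 gave 831. Cyp8b1 was at 0.36 (SE 0.25).

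Acute phase genes, which C/EBP-beta helps to induce, were tested for 10 of 14 listed, and 0 passed. Their median was 0.00315, with 0.15 in experiment 1 and -0.29 in experiment 2. Saa3, a serum amyloid gene that macrophages also express, gave 1472 and 1696 in p57-/- samples, against 2373 and 2335 in p57+/+ samples. The genotypes did not overlap and the log2 change was -0.58 (SE 0.14, limma adjusted p = 0.519). Saa3 was the only one of the 10 tested acute phase genes with an unadjusted p under 0.05, beside 4.07% of all genes lower. Orm1, at 0.58 (SE 0.66), Hp, the haptoglobin gene, at -0.45 (SE 0.31), and Crp, at -0.27 (SE 0.18), had overlapping genotypes. Orm1 was Absent on both arrays of experiment 2.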

How the data were processed

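RNA of 4 samples was read on 1 single-colour Affymetrix array each. The authors deposited the intensity of each probe set as a linear MAS5 signal, with a detection p-value and call, per the file headers; the submitters' processing notes name MAS5. The MAS5 version is not given in the sources used here. After trimming 2% at each end the mean signal was 500.003 on all 4 arrays, so a change in total RNA cannot be seen. The deposited value table held the same signals within 5e-04%.

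Signals were log2 transformed with no pseudocount or further normalization. Of 45037 probe sets that are not controls, those Present on at least 2 of the 4 arrays were tested with limma 3.58.1 in R 4.3.3 (lmFit, eBayes with a variance trend, no block, Benjamini-Hochberg, threshold 0.05), a fit tested on simulated data. Symbols came from the platform annotation, in which 34945 probe sets had 1 symbol, 932 several and 9160 none. The fold of Cdkn1c is a bound, taken against the higher of its own signal and the lowest Present one on each p57-/- array. Precision is limited by having 4 arrays.

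The factor genes and all lists were chosen with earlier results of these data known. Named were all probe sets of the 9 genes, Cdkn1c, the 4 genes of largest change in each list, the 2 brightest of each marker list and the 3 most like Hnf4a. The 10 marker lists and 5 gene lists are described by counts and medians, without a set test. The alternatives were quantile normalization, a pseudocount of 16, other detection filters, no variance trend, the experiment as a block, leaving out each array, averaging probe sets, and, added later, scaling to hepatocyte markers.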

Additional observations from a re-analysis of the deposited data

How the results depend on the processing

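None of the 16 probe sets passed the threshold under any alternative run, and the lowest adjusted p was 0.104, for Cebpb without p57-/- replicate 2 (range 0.104 to 0.99995 over the alternatives of that probe set). Apart from leaving out an array, all 111 values of the 16 probe sets kept their sign. With 1 array left out, 15 of 64 changed sign, none of them of Cebpb, Foxa3, Nr1h4 or the brightest probe sets of Hnf4a and Prox1. Those with a changed sign ranged from -0.0651 to 0.42 (Hnf4a 1427000_at), -0.17 to 0.41 (1421983_s_at), -0.11 to 0.18 (1450447_at), -0.19 to 0.16 (Foxa1), -0.23 to 0.45 (Foxa2), -0.0645 to 0.43 (Cebpa), -0.15 to 0.51 and -0.57 to 0.28 (Onecut1 1450252_at and 1421447_at) and -0.68 to 0.27 (Prox1 1457432_at). Leaving out an array, the change of Cebpb 1418901_at ranged from 0.27 without p57-/- replicate 1 to 0.55, and that of Foxa3 from 0.27 to 0.46. The median of the 9 genes ranged from 0.09 to 0.19. A fit with 1 array in a genotype assumes that it varies like the others.

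Over all probe sets, leaving out an array gave 1 to 98 higher and 1 to 123 lower, both most without p57-/- replicate 2. The count Present on all 4 arrays was 0 lower, since that filter removes Cdkn1c. Scaling to hepatocyte markers, chosen after seeing the data, gave 27 higher and 38 lower. With the replicate block it was 10 and 20. The labels pair the arrays by experiment. The deviations of same-numbered arrays correlated at 0.00460 across probe sets, a value that alone cannot show whether an experiment shared a batch. Under the block Cebpb had an adjusted p of 0.309 and 0.437 and Foxa3 one of 0.421.

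Leaving out an array, list medians ranged from 0.05 to 0.38 for paralogues, 0.0754 to 0.25 for other liver factors, -0.0920 to 0.16 for hepatocyte targets, -0.26 to 0.0832 for bile acid genes and -0.21 to 0.0825 for acute phase genes. With no detection filter, which adds dim probe sets, the medians were -0.0832 for paralogues and -0.26 for bile acid genes. The cause of the other shifts was not tested. Among the 16 probe sets, the dimmest, 2 of Prox1 and 1 of Hnf4a, had the widest errors.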
